A study of Mus musculus with 39 samples.

Results

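Nebl, Kcnk1, Gm10419 and Ccn4 are 4 genes that were chosen from whole-liver arrays of phenobarbital-treated mice because the difference between treated and control mice was larger after 91 days than after 1 day. The platform annotation pairs them with 8 probe sets as the only gene symbol, of 45101 probe sets on the array and 18193 genes with such a probe set. Nebl has 3 of them, Kcnk1 and Ccn4 have 2 each, and Gm10419 has 1. The differences between treated and control arrays chose the genes, so these differences are given with their standard error and without a test.

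The treated groups were male B6C3F1/Crl mice given phenobarbital at 0.05% (w/v) in their drinking water for 1, 7, 28 or 91 days, with 5 arrays at each time, and the controls were mice of the same strain and sex at the same times, with 4 arrays at day 1 and 5 at each later time. The mice were 29 to 32 days old when they arrived and had 5 days to acclimatise. The strain is an F1 hybrid, all groups share it, and whole liver was profiled on an Affymetrix 3' array. The labels do not say that each array is a separate animal, so the spread between arrays may in part be technical.

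Phenobarbital activates the nuclear receptor CAR in hepatocytes, which turns on cytochrome P450 genes and, over long exposure in mice, promotes liver tumours. Nebl encodes nebulette, a protein with nebulin repeats that binds actin filaments and is best known from the Z-disc of heart muscle. Kcnk1 encodes TWIK-1, a two-pore-domain channel that carries background potassium currents. Gm10419 is annotated by RefSeq as a long non-coding RNA. Ccn4, formerly Wisp1, encodes a secreted matricellular protein of the CCN family that was found as a gene induced by Wnt1 signalling. In whole tissue, a higher signal from more RNA per cell and one from more cells that make the RNA cannot be told apart.

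Array means lay between 6.22 and 6.26 on the log2 scale, and replicates of a group had Pearson correlations of 0.989 to 0.996 across all probe sets, which are not independent replicates. The lower quartile of an array was 4.37 to 4.48, its median 5.69 to 5.80 and its upper quartile 7.56 to 7.75, and these serve as a scale for how bright a probe set was. Liver identity was checked with 7 hepatocyte genes, whose summed signal was 17.23 to 17.35 on every array. Day 7 phenobarbital replicates 2 and 4 stood apart in heart and skeletal muscle genes (summed signal 12.70 and 11.66, against 8.13 to 8.47 on the other 37 arrays), and day 1 phenobarbital replicate 3 in exocrine pancreas genes (13.54, against 9.94 to 11.69 on the other 38). Day 7 phenobarbital replicate 3 stood apart in neutrophil genes (12.57, against at most 7.94 in the rest of its group) and in Kupffer cell and macrophage genes (13.83, against at most 12.88), and day 7 control replicate 4 in neutrophil genes (10.09, against at most 8.62). The differences, counts and covariation were recomputed without these 5 arrays. The mean of the array's spike-in controls was lower on phenobarbital arrays at day 1 (10.55 to 10.85, against 10.91 to 10.97 on control arrays) and higher at day 7 (10.76 to 10.97, against 9.58 to 10.27). The 3' minus 5' difference of Actb and Gapdh, a sign of RNA quality, was 0.42 to 0.50 on day 28 phenobarbital arrays, against 0.52 to 0.81 on day 28 control arrays.

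The sequences around the RefSeq start sites of Nebl, Kcnk1 and Gm10419 are shown, each with 250 bases before and 50 after the start, 5′ to 3′ on the strand of the gene (build GRCm38.p6). Ccn4 is not shown because the promoter sequences used had no entry for it. For Nebl, which has 4 starts in the table, the one that lies farthest upstream is printed. Capitals mark the matches to 6 short motifs searched on both strands. The motif for TCF/LEF factors was ATCAAAG, the nuclear receptor half-site was AGGTCA with the variant form AGTTCA, the TEAD motif was GGAATG, the AP-1 motif was TGANTCA, and the TATA box was TATAAA.
Nebl, chr2:17731085-17731384, minus strand: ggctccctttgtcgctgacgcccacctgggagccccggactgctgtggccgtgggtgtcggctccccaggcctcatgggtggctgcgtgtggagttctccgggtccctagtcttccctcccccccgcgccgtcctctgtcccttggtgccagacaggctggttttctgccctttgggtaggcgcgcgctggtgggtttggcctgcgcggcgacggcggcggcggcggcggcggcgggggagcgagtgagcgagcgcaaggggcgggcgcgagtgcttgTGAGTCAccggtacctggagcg
Kcnk1, chr8:125994852-125995151, plus strand: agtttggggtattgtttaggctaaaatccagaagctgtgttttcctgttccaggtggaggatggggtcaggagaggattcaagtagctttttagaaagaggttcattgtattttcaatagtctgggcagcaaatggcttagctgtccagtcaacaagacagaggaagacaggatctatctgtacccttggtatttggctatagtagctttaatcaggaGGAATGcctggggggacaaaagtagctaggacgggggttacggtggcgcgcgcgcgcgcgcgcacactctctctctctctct
Gm10419, chr5:108367687-108367986, plus strand: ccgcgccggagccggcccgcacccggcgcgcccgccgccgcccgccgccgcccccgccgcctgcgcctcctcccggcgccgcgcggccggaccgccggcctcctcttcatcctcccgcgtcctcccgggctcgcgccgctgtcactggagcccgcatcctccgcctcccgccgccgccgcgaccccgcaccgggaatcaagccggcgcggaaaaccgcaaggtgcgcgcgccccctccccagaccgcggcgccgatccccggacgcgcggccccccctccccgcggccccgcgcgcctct
The Nebl sequence is 72.0% G and C, that of Kcnk1 49.0% and that of Gm10419 84.0%, against a median of 52.7% over 32851 promoters of the same length. In the Nebl sequence the only match was an AP-1 motif 28 bases after the start. The search pattern TGANTCA is its own reverse complement and occurs in 7.81% of all promoters. Of the other 3 Nebl starts, the one at chr2:17670116-17670415 had a TEAD motif 230 bases before the start and the variant half-site 192 bases before it, the one at chr2:17462807-17463106 had the half-site AGGTCA 99 bases before it, and the remaining one had no match. Which start the bright probe set reads is not known. The Kcnk1 sequence had a single TEAD motif 32 bases before the start, a motif found in 14.7% of promoters. The Gm10419 sequence held none of the 6 motifs, and no motif was shared by the 3 printed sequences. A motif match is a description of the letters and says nothing about binding.

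On its brightest probe set Nebl had the largest late increase of the 4 genes, whereas the mean of its 3 probe sets differed by 1.38 at day 28 and 1.70 at day 91, less than the same mean for each of the other 3 genes. Its probe set 1438452_at had signals of 4.50, 4.46, 4.25, 4.49 and 4.53 on the day 1 phenobarbital arrays, against 4.14, 4.38, 4.50 and 4.17 on the day 1 control arrays. At day 7 it had 5.29, 4.77, 4.41, 5.26 and 4.73 on phenobarbital arrays, against 4.43, 4.16, 4.18, 4.23 and 4.48 on control arrays. The groups overlapped at both times, with 4 of the 5 phenobarbital arrays above all controls at day 7. At day 28 the signals were 8.06, 8.01, 8.19, 7.47 and 8.24 with phenobarbital, against 4.28, 4.46, 4.40, 4.48 and 4.46 in controls. At day 91 they were 9.10, 8.21, 9.35, 9.02 and 8.53 with phenobarbital, against 4.58, 4.35, 4.71, 4.49 and 4.43 in controls. At both late times every phenobarbital array lay far above every control array.

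The difference of Nebl, phenobarbital minus control, was 0.15 (SE 0.17) at day 1, 0.59 (SE 0.16) at day 7, 3.58 (SE 0.16) at day 28 and 4.33 (SE 0.16) at day 91 on the log2 scale. These differences correspond to 1.11-, 1.51-, 12.0- and 20.1-fold higher signal. Most of the increase fell between day 7 and day 28, where the phenobarbital mean gained 3.11 and the control mean 0.12. From day 28 to day 91 the phenobarbital mean gained a further 0.85. Among 45037 probe sets that are not array controls, the growth of the difference from day 1 to day 91 (4.18, SE 0.23) ranked 2nd.

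Nebl is a muscle gene in its best-known setting, and 2 of the day 7 phenobarbital arrays carried muscle transcripts. Without these 2 arrays the day 7 difference of Nebl was 0.51, against 0.59 with them, and replicate 1, which had a muscle level of 8.28, also had the highest Nebl signal at day 7 (5.29). At days 28 and 91, where the Nebl difference was large, the summed muscle signal was 8.24 to 8.33 and 8.13 to 8.30 on phenobarbital arrays, against 8.19 to 8.44 and 8.21 to 8.41 on control arrays. Of the 10 muscle genes, 4 lay below the array median on all 39 arrays, a count that was not made by group.

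The other Nebl probe sets did not carry the same change. Probe set 1439897_at differed by -0.06, -0.07, 0.20 and 0.14 at days 1, 7, 28 and 91, with overlapping groups at each time. Probe set 1451846_at differed by 0.16, 0.11, 0.35 and 0.64, with no overlap at days 1, 28 and 91. Both were below the lower quartile of the array on all 39 arrays. Which Nebl transcripts each probe set reads was not tested.

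Kcnk1 also had its largest step between day 7 and day 28, but it was already somewhat higher at day 1. Probe set 1448690_at had 6.08, 5.90, 6.04, 6.39 and 5.93 on day 1 phenobarbital arrays, against 5.36, 5.68, 5.16 and 5.52 on control arrays. At day 7 it had 6.16, 6.19, 5.96, 5.55 and 5.70 with phenobarbital, against 5.55, 5.70, 5.54, 5.13 and 5.43 in controls. The groups were apart at day 1 and overlapped at day 7, where 3 of 5 phenobarbital arrays lay above all controls. At day 28 it had 8.30, 8.28, 7.80, 7.79 and 7.97 with phenobarbital, against 5.67, 5.84, 5.77, 5.64 and 6.07 in controls. At day 91 it had 9.56, 7.47, 9.97, 9.49 and 8.45 with phenobarbital, against 5.58, 5.51, 5.81, 5.57 and 6.17 in controls. At day 91 the phenobarbital arrays spread widely, with an SD of 1.02 against 0.27 in controls, and replicate 2 was the lowest.

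The Kcnk1 difference was 0.64 (SE 0.26), 0.44 (SE 0.25), 2.23 (SE 0.25) and 3.26 (SE 0.25) at days 1, 7, 28 and 91, which is 1.56-, 1.36-, 4.70- and 9.60-fold. The values at days 1 and 7 lie within 1 SE of each other, so no growth over the first week was measured. The second Kcnk1 probe set, 1455896_a_at, followed the same course with smaller differences of 0.43, 0.33, 1.58 and 2.01. Its phenobarbital arrays lay above all control arrays at each of the 4 times. The deviations of both probe sets from their day means went together over the 20 phenobarbital arrays (Pearson r = 0.87, given as a description because they read 1 gene on the same arrays). Kcnk1 is strongly expressed in kidney, and the extraction protocol names kidney as well as liver. The summed signal of 8 kidney genes was 8.25 to 8.78 on day 91 phenobarbital arrays, against 8.28 to 8.72 on day 91 control arrays. Of the 8 genes, 4 lay below the array median on all 39 arrays. Of the 4 kidney genes tested, the kidney cadherin gene Cdh16 was called higher at day 7 (0.47, limma adjusted p = 0.00197) and day 91 (0.31, adjusted p = 0.0355), and the other 3 were not called at any day. The part of kidney transcripts in the Kcnk1 difference was not tested.

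Gm10419 was intermediate, with a rise that began earlier than that of Nebl. Its only probe set, 1436265_at, had 5.02, 4.82, 4.65, 4.66 and 5.07 on day 1 phenobarbital arrays, against 4.57, 4.21, 4.19 and 4.36 on control arrays. At day 7 it had 6.63, 6.45, 4.97, 5.52 and 5.52 with phenobarbital, against 4.18, 4.32, 4.19, 4.36 and 4.10 in controls. The groups did not overlap at either time, and at day 7 phenobarbital replicates 1 and 2 were well above the other 3. At day 28 the signals were 8.68, 8.43, 7.96, 8.14 and 7.74 with phenobarbital, against 4.78, 4.63, 4.38, 5.05 and 5.31 in controls. At day 91 they were 8.55, 7.77, 8.87, 8.69 and 8.07 with phenobarbital, against 4.81, 4.47, 4.66, 4.66 and 4.85 in controls. Both late times lay at about the same level in treated mice.

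The Gm10419 difference was 0.51 (SE 0.23), 1.59 (SE 0.22), 3.36 (SE 0.22) and 3.70 (SE 0.22), or 1.42-, 3.01-, 10.3- and 13.0-fold. The phenobarbital mean gained 0.97 from day 1 to day 7, 2.37 from day 7 to day 28 and 0.20 from day 28 to day 91. Without the 5 arrays that stood apart, the day 1 difference was 0.56 for Gm10419, 0.19 for Nebl, 0.65 for Kcnk1 and 1.24 for Ccn4. At day 7, with 2 phenobarbital and 4 control arrays left, it was 1.88 for Gm10419, 0.69 for Nebl, 0.37 for Kcnk1 and 1.77 for Ccn4. Each moved by less than the spread between replicates.

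Ccn4 did not follow the late course. Probe set 1448593_at had 7.62, 7.71, 7.58, 7.74 and 7.89 on day 1 phenobarbital arrays, against 6.31, 6.72, 6.67 and 6.30 on day 1 control arrays. At day 7 it had 8.48, 8.20, 7.58, 8.51 and 8.27 with phenobarbital, against 6.51, 6.57, 6.64, 6.39 and 6.72 in controls. The groups were thus apart after a single day of treatment. At day 28 it had 8.08, 8.30, 8.48, 8.25 and 8.07 with phenobarbital, against 6.64, 5.93, 6.10, 6.20 and 6.39 in controls. At day 91 it had 8.33, 7.78, 8.50, 7.91 and 7.34 with phenobarbital, against 6.13, 6.20, 5.64, 6.65 and 6.11 in controls. The treated level was about the same from day 7 on.

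The Ccn4 difference on this probe set was 1.21 (SE 0.18), 1.64 (SE 0.17), 1.99 (SE 0.17) and 1.82 (SE 0.17), or 2.31-, 3.12-, 3.96- and 3.54-fold. It grew by 0.62 (SE 0.25) from day 1 to day 91, which ranked 2471st of the 45037 probe sets. The second probe set, 1448594_at, differed by 1.27 (SE 0.21), 2.08, 2.20 and 2.88 (SE 0.20 each). Its growth of 1.61 (SE 0.30) was made up of a phenobarbital mean that gained 0.66 and a control mean that fell by 0.95 between day 1 and day 91. Calling Ccn4 late-rising therefore does not describe its values, in which more than a 2-fold difference was present at day 1. Stellate cells and fibroblasts are a usual source of matricellular proteins. The summed signal of 11 of their markers was 13.68 to 13.96 on day 1 phenobarbital arrays, against 13.68 to 14.06 on control arrays, and 13.30 to 13.67 at day 7, against 13.47 to 13.83. It was 12.40 to 12.87 on day 28 phenobarbital arrays, against 13.06 to 13.22 on control arrays, and 12.44 to 12.84 at day 91, against 12.77 to 12.92. The groups overlapped at days 1, 7 and 91 and were apart at day 28, where phenobarbital was lower. The part of these cells in the Ccn4 difference was not tested.

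**Figure D1:**
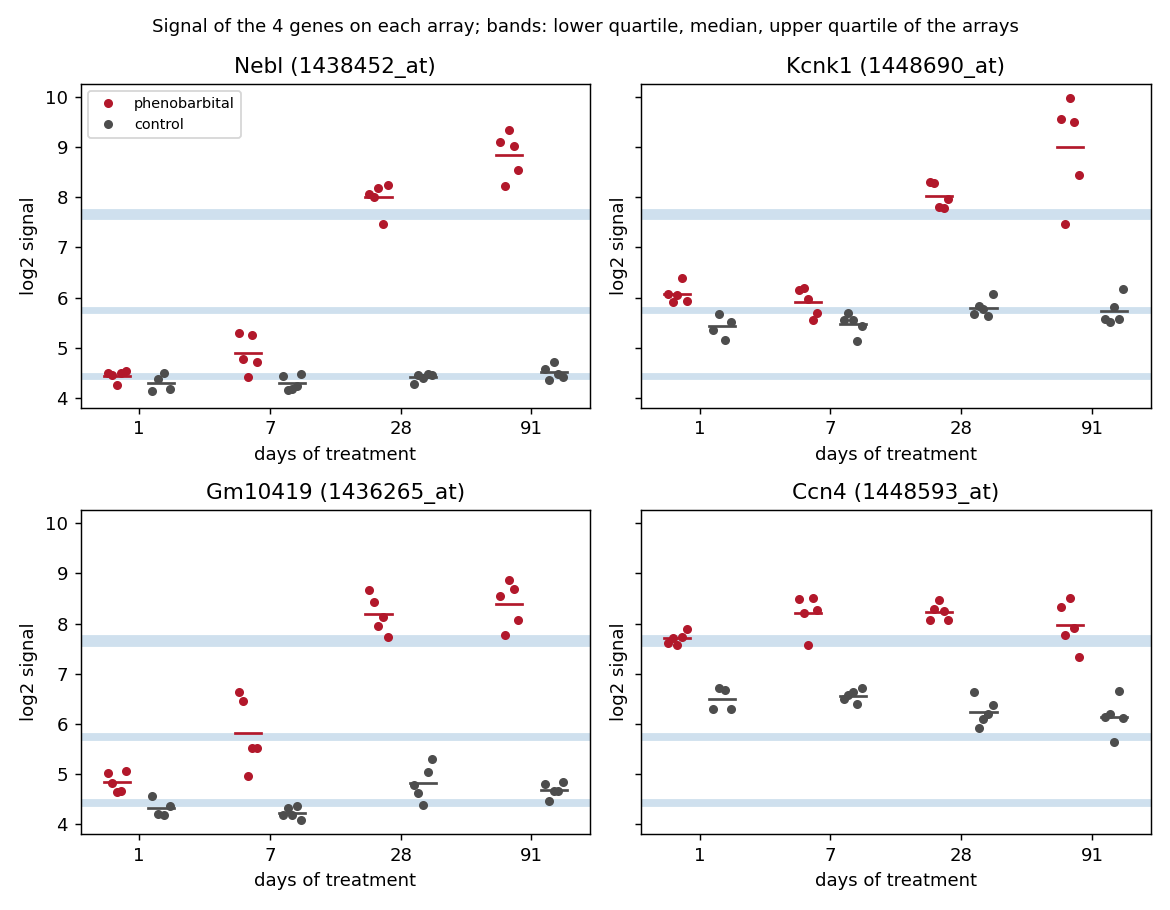
Log2 signal of the brightest probe set of Nebl, Kcnk1, Gm10419 and Ccn4 on each of the 39 arrays by days of treatment, with phenobarbital arrays left of control arrays, short lines at group means and bands for the range of the lower quartile, median and upper quartile over the arrays. Nebl, Kcnk1 and Gm10419 reach the upper quartile at days 28 and 91, whereas Ccn4 is apart from its controls from day 1.

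Over all members, 6 of the 8 probe sets had every phenobarbital array above every control array at day 1, 4 at day 7, and 7 each at days 28 and 91. Over all probe sets such a separation was found for 10.4% at day 1, 3.69% at day 7, 5.47% at day 28 and 3.24% at day 91. A difference of at least 1 on the log2 scale was reached by 2 of 8 at day 1, 3 at day 7, and 6 each at days 28 and 91, against 0.526%, 0.26%, 0.26% and 0.229% of all probe sets. Without the arrays that stood apart, 6 of the 8 were separated at day 1 and 5 at day 7, against 13.1% and 11.8% of all probe sets. Growth of at least 1 from day 1 to day 91 was seen for 5 of the 8, against 1.87% of all probe sets. Nothing is read from these counts, because the same contrasts chose the genes. The growth of Gm10419 (3.19, SE 0.32) ranked 7th, that of Kcnk1 1448690_at (2.62, SE 0.36) 16th and that of Ccn4 1448594_at 177th. The brightest probe set of each of the 4 genes passed the filter on dim signals, which asks for a signal above the array median on at least 4 arrays. Nebl and Gm10419 passed only through phenobarbital arrays, since both were below the median on all 19 control arrays. For these genes passing follows from the high treated signal for which they were chosen.

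**Figure D2:**
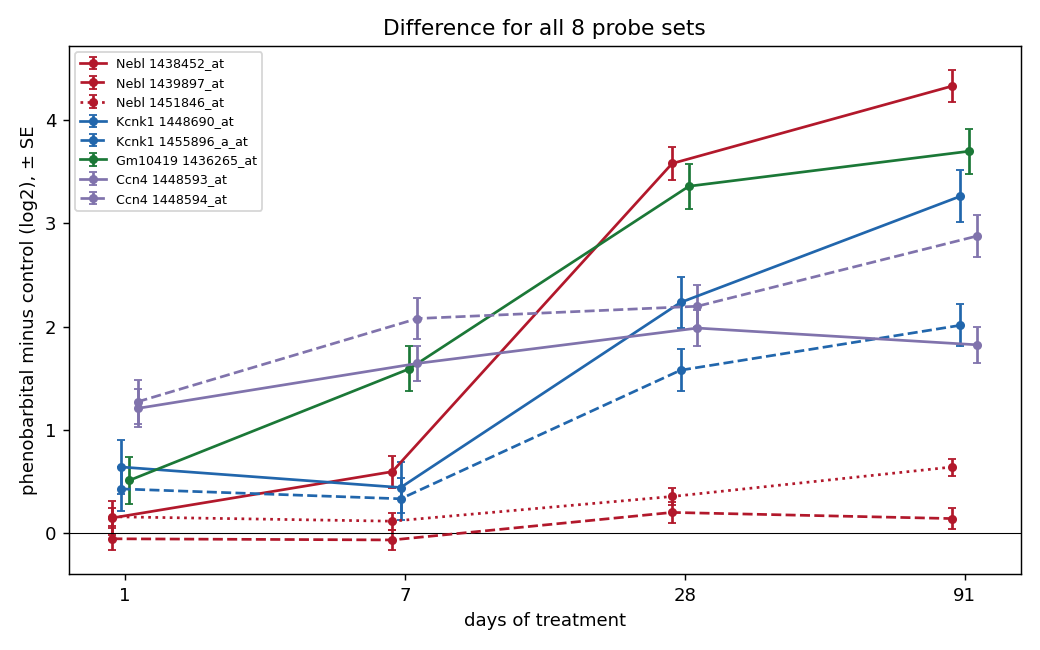
Difference in log2 signal, phenobarbital minus control, with its standard error for all 8 probe sets at days 1, 7, 28 and 91. The brightest Nebl probe set, Gm10419 and both Kcnk1 probe sets climb between day 7 and day 28, both Ccn4 probe sets start above 1.2, and the other Nebl probe sets stay below 0.7.

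The control signals differed in how far they stood above the dimmest probe sets of the array. Nebl 1438452_at was below the array median on all 19 control arrays and below the lower quartile on 9 of them, and so was Gm10419. Kcnk1 1448690_at was below the median on 14 of 19 control arrays and Ccn4 1448593_at on 1 of 19, and neither fell below the lower quartile. At days 28 and 91 Nebl, Kcnk1 and Ccn4 were each above the upper quartile on 9 of 10 phenobarbital arrays, and Gm10419 on 10 of 10. The folds of Nebl and Gm10419 are thus set against dim control signals, at percentiles 19.3 to 31.4 of the array for Nebl, and how much of such a signal is non-specific was not measured.

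Covariation was measured on deviations from the mean of the array's own day, so the group means that chose the genes do not enter. Over the 20 phenobarbital arrays, 2 of the 6 pairs passed an adjusted p of 0.05 (2-sided permutation test within days, Benjamini-Hochberg over the 6 pairs). How often pairs of other tested genes covary as strongly on these arrays was not measured, so the count is not read as particular to the members. Nebl and Ccn4 had Pearson r = 0.71 (permutation p = 0.00884, adjusted p = 0.0265) and Spearman rho = 0.67 (permutation p = 0.0122, adjusted p = 0.0366). Without the 2 arrays farthest from the median of Nebl, r was 0.83. Kcnk1 and Gm10419 had r = 0.62 (permutation p = 0.00219, adjusted p = 0.0131) and rho = 0.65 (permutation p = 0.0087, adjusted p = 0.0366). Without the 2 arrays farthest from the median of Kcnk1, r was 0.52 and the call was lost (adjusted p = 0.0879), so the relation rests in part on those arrays.

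Without the 4 phenobarbital arrays that stood apart, Nebl and Ccn4 had r = 0.61 and lost the call (adjusted p = 0.143), Kcnk1 and Gm10419 had r = 0.73 (adjusted p = 0.0118), and Nebl and Kcnk1 passed with r = 0.82 (adjusted p = 0.0118). Both calls also depended on single arrays. The Nebl and Ccn4 pair was not called without day 7 phenobarbital replicate 1 (r = 0.68, adjusted p = 0.0585) or replicate 3 (r = 0.64, adjusted p = 0.0838), nor without day 91 phenobarbital replicate 3 (r = 0.64, adjusted p = 0.0774) or replicate 4 (r = 0.72, adjusted p = 0.0507). The Kcnk1 and Gm10419 pair was not called without day 91 phenobarbital replicate 3 (r = 0.57, adjusted p = 0.0598). Nebl and Kcnk1 came close (r = 0.63, permutation p = 0.0254, adjusted p = 0.0508, rho = 0.45 with adjusted p = 0.143), and r was 0.44 without the 2 farthest arrays. This pair passed without day 1 phenobarbital replicate 5, day 7 phenobarbital replicate 2 or 4, or day 28 phenobarbital replicate 1, 3 or 5 (adjusted p = 0.0466, 0.0369, 0.0167, 0.048, 0.0336 and 0.035). The other pairs were Nebl and Gm10419 (r = 0.55, adjusted p = 0.0683, rho = 0.45), Gm10419 and Ccn4 (r = 0.54, adjusted p = 0.0683, rho = 0.43) and Kcnk1 and Ccn4 (r = 0.42, adjusted p = 0.27, rho = 0.28). Of these, Nebl and Gm10419 passed without day 7 phenobarbital replicate 2, replicate 4, or day 28 phenobarbital replicate 3 or 5 (adjusted p = 0.0369, 0.0316, 0.0456 and 0.035). Gm10419 and Ccn4 passed without day 7 phenobarbital replicate 4 or day 28 phenobarbital replicate 1 or 3 (adjusted p = 0.0355, 0.048 and 0.0456). Over the 19 control arrays the 6 values of r were -0.13 to 0.24, with adjusted p = 0.999 for each pair. Nebl and Gm10419 were below the array median on each of these arrays. Pairs with either gene therefore cannot show whether covariation differs between treated and control mice.

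No pair was called without the day 91 arrays. Fewer arrays are then left, and Nebl was below the array median on each phenobarbital array of days 1 and 7. The values that follow therefore cannot show that covariation is confined to day 91. Over the 15 phenobarbital arrays of days 1, 7 and 28, a choice made after seeing the data, 0 of the 6 pairs passed, with r = 0.63 for Nebl and Ccn4 (adjusted p = 0.271), 0.51 for Kcnk1 and Gm10419 (adjusted p = 0.345) and 0.04 for Nebl and Kcnk1 (adjusted p = 0.904). Within day 28, over 5 arrays, r was below 0 for 4 of the 6 pairs, at -0.44, -0.20, -0.15 and -0.05. Within days 1 and 7 it was below 0 for 2 pairs each. Within day 91 it was 0.71 to 0.99 over the 6 pairs. At day 91 phenobarbital replicate 2 was 0.63 below its day mean in Nebl, 1.52 in Kcnk1, 0.62 in Gm10419 and 0.20 in Ccn4, and replicate 5 was below in all 4 genes as well. Replicate 3 was the highest of the day in all 4, by 0.51, 0.98, 0.48 and 0.53 above the mean. The classical CAR target Cyp2b10 had a signal of 13.41 in replicate 2 and 13.59 each in replicates 3 and 5, and 13.53 to 13.64 in replicates 1 and 4. Replicates 2 and 5 also had the lowest spike-in means of the group (10.88 and 11.08, against 11.14 to 11.28). The same 2 were lowest in the summed stellate cell and fibroblast markers (12.48 and 12.44, against 12.64 to 12.84) and the other CCN genes (9.30 and 8.58, against 10.10 to 10.21). For hepatocyte genes they had 17.26 and 17.23, against 17.25 to 17.27. The part of the spike-in mean in the covariation was not tested. Over the 10 phenobarbital arrays of days 28 and 91, r was 0.84 for Nebl and Kcnk1 (adjusted p = 0.0234) and 0.86 for Kcnk1 and Gm10419 (adjusted p = 0.00978). For Nebl and Ccn4 it was 0.61 (adjusted p = 0.211).

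**Figure D3:**
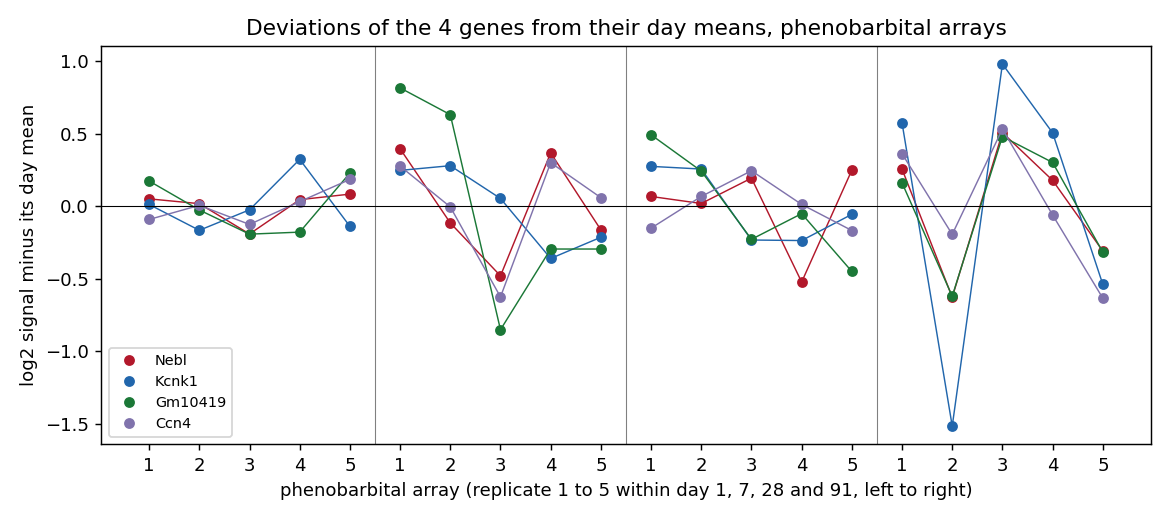
Deviation of log2 signal from its day mean for Nebl, Kcnk1, Gm10419 and Ccn4 on the 20 phenobarbital arrays, with replicates 1 to 5 of days 1, 7, 28 and 91 from left to right and lines joining arrays of a day only to guide the eye. At day 91 replicates 2 and 5 lie below 0 and replicate 3 above 0 in all 4 genes.

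The genes whose 8 group means were most like those of each member were found among 1236 tested genes with a range of at least 1. Over these means, the members Nebl and Kcnk1 had r = 0.99, Nebl and Gm10419 0.98 and Kcnk1 and Gm10419 0.97, whereas Ccn4 had 0.65 to 0.75 with the other 3. The genes were chosen for late growth of these same means, which favours such values, so they are given as a description. Nebl was most like the imprinted non-coding RNAs Meg3 (r = 0.98) and Rian (0.98), the cytochrome P450 Cyp2d12 (0.97), the transmembrane protein gene Tmeff2 (0.96) and the P450 Cyp2c65 (0.94). Kcnk1 was most like Tmeff2 (0.97), Meg3 (0.97), Cyp2d12 (0.95), Rian (0.95) and Moxd1 (0.92), a gene for a monooxygenase-like protein. Gm10419 was most like Cyp2c65 (0.98), Meg3 (0.96), Cyp2d12 (0.95), Rian (0.94) and A2ml1 (0.94), a protease inhibitor gene. Ccn4 was most like Nsl1 (0.98), a kinetochore gene, Catsperd (0.98), a subunit gene of the sperm calcium channel, the P450 genes Cyp2c54 (0.98) and Cyp2c37 (0.97), and 1700067K01Rik (0.98).

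Meg3 had the course closest to that of Nebl, with differences of -0.19, 0.28, 2.25 and 3.02 at days 1, 7, 28 and 91. These genes were picked for their likeness, so their differences are a description. The genes most like Ccn4 had differences of 0.62 to 2.51 at day 1. Nsl1 differed by 0.74, 1.08, 1.07 and 0.83, and Cyp2c37 by 1.18, 1.86, 1.72 and 1.72.

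**Figure D4:**
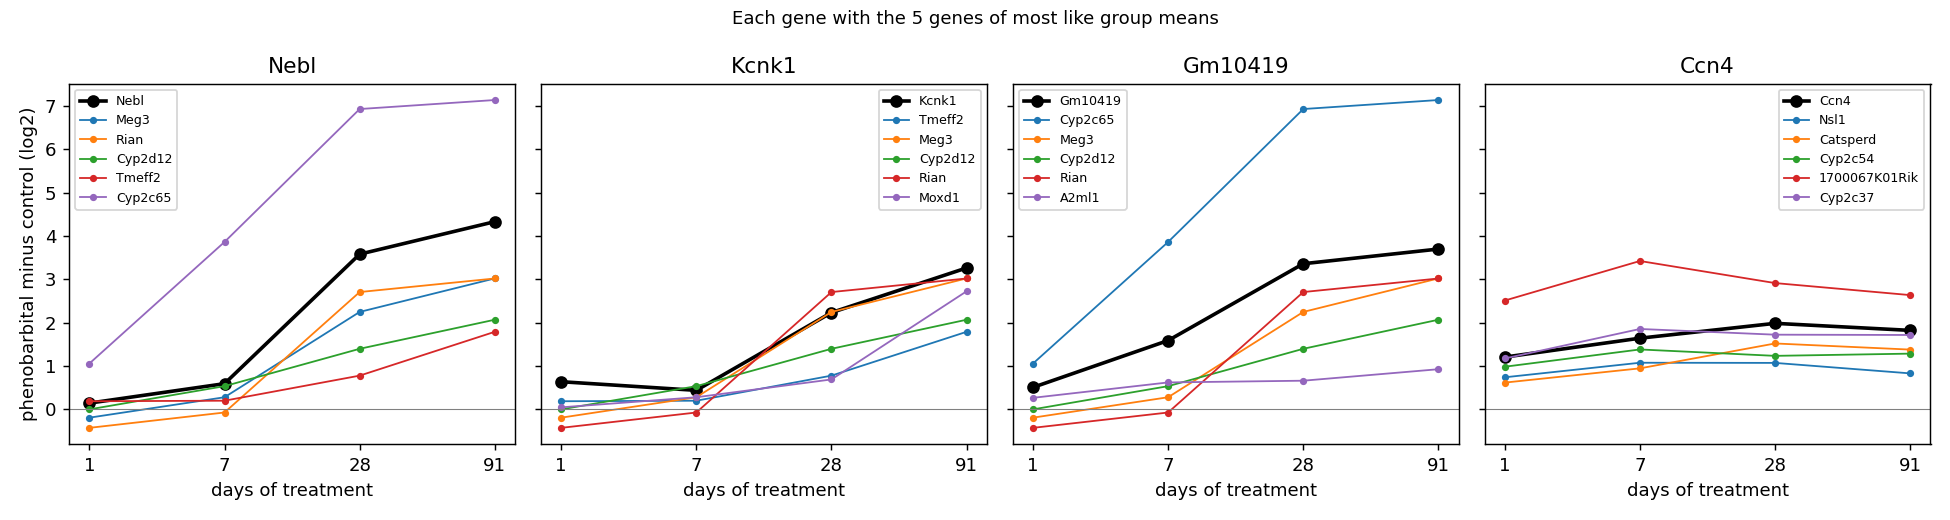
Difference in log2 signal, phenobarbital minus control, by day for each of Nebl, Kcnk1, Gm10419 and Ccn4 (black) and the 5 genes with the most like group means (colours). Beside Nebl and Kcnk1, the genes other than Cyp2c65 stay at 0.54 or less through day 7 and are higher at days 28 and 91, whereas those beside Ccn4 lie at 0.62 or more at day 1.

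Likeness of group means does not use the spread between replicates, so the deviations over the 20 phenobarbital arrays were compared for the 20 pairs of a member and a like gene. Of these pairs 10 passed an adjusted p of 0.05 over the 20, and 0 of the 5 pairs of Ccn4 did. The share of all tested genes that covary as strongly with a member was not measured. Several like genes also enter more than 1 pair, so the count is given as a description. Only Kcnk1 with Tmeff2 and Gm10419 with Meg3 also passed without the 2 farthest arrays. Kcnk1 and Tmeff2 had r = 0.87 (permutation p = 0.00022, adjusted p = 0.0044) and rho = 0.79 (adjusted p = 0.0094), and r = 0.63 without the 2 farthest (adjusted p = 0.0474). Gm10419 and Meg3 had r = 0.75 (permutation p = 0.00166, adjusted p = 0.0089) and rho = 0.78 (adjusted p = 0.0165), and r = 0.76 without the 2 farthest (adjusted p = 0.0474). Both passed when any 1 array was left out, with adjusted p of at most 0.0311, and without the arrays that stood apart (adjusted p = 0.0068 and 0.0363). Over days 1, 7 and 28 alone neither passed (r = 0.57 and 0.69, adjusted p = 0.169 and 0.213), and 0 of the 20 pairs did. In controls, where Nebl and Gm10419 were dim, 0 of the 20 pairs passed. Meg3 had 11.43, 10.78, 12.15, 11.76 and 11.13 on the day 91 phenobarbital arrays, lowest in replicates 2 and 5 like the members. Tmeff2 was dim, at 4.42 to 4.90 on the phenobarbital arrays of days 1 and 7. It was 4.88 to 5.72 at day 28, and each of these signals was below the array median. Among phenobarbital arrays Tmeff2 was above the median only at day 91, in replicates 1, 3, 4 and 5 (6.53, 7.16, 6.70 and 6.22).

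Relatives of the members were also listed, to see whether the change belonged to a family. Of the CCN family, 3 of 5 other genes passed the filter and 0 were called at any day, where 15.8%, 5.64%, 11.2% and 4.62% of the 12580 tested genes were called higher and 16.7%, 11.4%, 18.1% and 16.1% lower at days 1, 7, 28 and 91. Ccn2, a fibrosis-linked member, differed by -0.34, -0.35, -0.44 and 0.40 (SE 0.33 to 0.35). At an unadjusted limma p under 0.05 the count was also 0 at each of the 4 times. Of 13 other two-pore potassium channel genes 7 were tested, and 0, 0, 2 and 1 were called higher and 1, 1, 1 and 0 lower at the 4 times. Their differences at day 91 were -0.21 to 0.26, against 3.26 for Kcnk1. Of 20 nebulin-family and actin-partner genes 16 were tested, and 1, 0, 2 and 0 were higher and 3, 2, 1 and 2 lower. Neb, the skeletal muscle nebulin, fell by 1.55 at day 1 (SE 0.29, limma adjusted p = 0.000117), and the tropomyosin gene Tpm1 was 0.42 higher (adjusted p = 0.000185). The median of this list was 0.02, -0.05, -0.07 and -0.11, beside 0.01, -0.05, -0.02 and -0.07 over all tested genes.

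Ccn4 is a Wnt-induced gene in other systems, so Wnt targets and components were listed. Of 21 Wnt targets 18 were tested, and 2, 2, 3 and 3 were called higher and 6, 5, 4 and 3 lower at days 1, 7, 28 and 91. Tnfrsf19, a receptor gene, was 1.60 higher at day 7 (SE 0.19, limma adjusted p = 1.25e-07) and 0.92 higher at day 91 (adjusted p = 0.000832). The pericentral P450 Cyp1a2 was 0.44, 0.58, 0.54 and 0.75 higher (adjusted p = 0.00188, 0.000132, 0.000162 and 2.37e-06). Notum, a Wnt antagonist, fell by 0.88 at day 7 (adjusted p = 9.13e-06). The glutamate transporter gene Slc1a2 fell by 0.96 at day 1 (adjusted p = 0.000361). Lgr5, Glul, Znrf3, Rhbg and Lect2 were added for mention after their values were seen. Rhbg (0.85, adjusted p = 8.5e-07) and Lect2 (0.43, adjusted p = 0.000538) were higher at day 28, calls that were not followed through the alternative settings. Lgr5, a receptor of R-spondins, fell by 1.13 at day 1 and fell by 1.04 at day 28 (adjusted p = 5.71e-05 and 0.000131), the second without a call when its probe sets were averaged (adjusted p = 0.0622). Glul, the pericentral glutamine synthetase gene, fell by 0.32 at day 1 (adjusted p = 0.000765). Znrf3, which removes Wnt receptors, fell by 0.72 at day 28 (adjusted p = 0.000313), again without a call when the 3' minus 5' difference entered as a covariate (adjusted p = 0.0757). Averaging each gene's probe sets made several of these differences smaller, with 0.65 for Tnfrsf19 at day 7 and, at day 1, -0.33 for Slc1a2 and -0.38 for Lgr5. The median of the list was -0.05, -0.12, -0.01 and -0.08, beside the medians of all genes given above. Of 26 ligands, receptors and effectors 22 were tested, with 1, 1, 1 and 2 higher and 5, 4, 5 and 1 lower. Without the arrays that stood apart, the Wnt targets called lower at day 7 numbered 3 and the components 1, with 2 and 0 higher. With the 3' minus 5' difference as a covariate, 1 target and 2 components were lower at day 28. Over all tested genes the lower calls also fell in these settings, to 524 from 1429 at day 7 and to 616 from 2276 at day 28. The ligand Wnt2 fell by 0.51 at day 28 and by 0.50 at day 91 (adjusted p = 0.00159 and 0.00331). Apc, which holds beta-catenin low, fell by 0.42 at day 1 and 0.52 at day 28 (adjusted p = 0.000594 and 3.49e-05).

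A list of CAR targets was set beside the members, and which genes respond directly to the drug was not tested. Of 27 listed genes 25 were tested, and 23, 25, 24 and 21 were called higher and 0 lower at days 1, 7, 28 and 91. Without the arrays that stood apart 23 were higher at day 7, and with the 3' minus 5' difference as a covariate 22 at day 28. Their median difference was 1.15, 1.39, 1.19 and 0.82. Cyp2b10 was higher by 6.21, 6.36, 6.90 and 5.64 and Cyp2c55 by 3.99, 4.68, 4.01 and 3.45, so both were at day 1 already close to their later differences. Ccn4 had 1.21 at day 1 beside 1.99 at day 28, and Nebl 0.15 beside 3.58. Cyp2c65 on the same list differed by 1.06, 3.86, 6.93 and 7.13, a course like that of Gm10419. Cyp2b13 differed by 2.14, 4.09, 1.91 and 4.81. Its day 28 call was lost with the 3' minus 5' difference as a covariate (limma adjusted p = 0.0906).

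Of the genes next to each member in the RefSeq order, those that could be tested were Map3k21 beside Kcnk1, Pigg beside Gm10419, and Sla and Ndrg1 beside Ccn4. Ndrg1, a stress- and differentiation-linked gene, was called higher at each time, by 1.05, 0.92, 1.21 and 1.26 (limma adjusted p = 2.43e-06, 1.57e-05, 9.46e-08 and 5.54e-08). It was higher from day 1, as Ccn4 was. The other 3 neighbours were not called at any day, with differences of -0.39 to 0.03. None of the genes next to Nebl in that order was tested.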

How the data were processed

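The deposited values are log2 signals of 45101 probe sets on 39 arrays. The submitters' processing notes name GCOS, and how probes were summarised and normalized is not given in the sources used here. Groups follow the treatment and duration labels. The treatment protocol mentions 28 days, but the sample labels run to 91 days and were used. Day 28 control replicate 2 has an identifier outside the range of the others. No value was rescaled or imputed.

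Differences of the members come from a linear model with 1 mean per group over all 39 arrays in limma 3.58.1 (R 4.3.3), fitted to 45037 probe sets without the array controls. For lists, each gene was represented by its brightest probe set with a single symbol and tested if above the array median on at least 4 arrays, which kept 12580 of 18193 genes. P-values are 2-sided and Benjamini-Hochberg adjusted over all tested genes, with calls at an adjusted p under 0.05. Probe sets with several symbols (932) or none (9160) were not used. Summed signals are log2 of the sum of linear signals. Permutation tests (NumPy 2.4.6, SciPy 1.17.1) drew 100000 permutations within days. Probe sets differ in brightness for reasons other than RNA amount, so levels were compared only within a probe set, and the number of arrays limits precision. The code was tested on simulated data.

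The members and the gene lists were chosen with earlier results of these data known. Named were all member probe sets, the 5 genes of most like group means per member, called genes of each list (where over 6 were called at a day, the 4 with the largest difference at day 91) and tested neighbours. In the results a named call of a pathway list held in every alternative unless its loss is stated, and its other calls are given as counts, a restriction made after seeing them. The day 28 calls of Rhbg and Lect2 were not followed through the alternatives. Promoter sequences and gene order come from RefSeq (GRCm38.p6). Alternatives were quantile normalization, centring, other filters, the mean of all probe sets, no variance trend, only the 2 groups compared, spike-in mean or 3' minus 5' difference as a covariate, and leaving out each array. Leaving out the 5 arrays more than 1 above their group median in markers of another cell type, and days 1, 7 and 28 alone, were added after seeing the data.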

Additional observations from a re-analysis of the deposited data

Results flagged for a closer look

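Of 64 groups of 4 or 5 arrays tested over the 8 member probe sets, 5 had an array far from the others, where chance alone gives about 1 group in 20. Nebl 1438452_at was 4.25 in day 1 phenobarbital replicate 3 (others 4.46 to 4.53), the array with pancreas transcripts. Nebl 1451846_at was 3.27 in day 1 phenobarbital replicate 1 (others 2.94 to 2.98), and Nebl 1439897_at was 3.93 in day 91 control replicate 1 (others 3.59 to 3.69). Kcnk1 1455896_a_at was 5.57 in day 91 control replicate 5 (others 4.79 to 4.98). Ccn4 1448594_at was 4.94 in day 1 control replicate 4 (others 5.67 to 5.72).

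Of 86 list genes called at some day, marker lists included, 11 had a higher and 14 a lower difference at day 91 than at day 1 (limma contrast, adjusted over all tested genes, of which 11.1% were higher and 19.4% lower). Of the 37 list genes selected for naming, 10 were among them. The CAR targets Cyp2c65 (6.08, adjusted p = 4.7e-11) and Cyp2b13 (2.67, adjusted p = 0.0135) had grown. Tcf7l2 (0.57, adjusted p = 0.00872), Lasp1 (0.53, adjusted p = 0.00984), Neb (1.10, adjusted p = 0.0367), Lgr5 (0.80, adjusted p = 0.027) and Ctnnb1 (0.16, adjusted p = 0.0497) were lower at day 1, and that difference was smaller or gone at day 91. With averaged probe sets the day 1 call of Lasp1 was lost (-0.16, limma adjusted p = 0.0894) and that of Ctnnb1 reversed (0.02). The contrasts of day 91 with day 1 were not followed through the alternative settings. Tpm1 (-0.39, adjusted p = 0.011), Kcnk3 (-0.38, adjusted p = 0.0264) and Flnc (-0.32, adjusted p = 0.0319) had a lower difference at day 91 than at day 1.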

How the results depend on the processing

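Each of the 156 member differences recomputed without 1 array moved by less than the spread between replicates, and so did 111 of 116 under other settings. Averaging each gene's probe sets gave Nebl 0.21, 1.38 and 1.70 at days 7, 28 and 91, Kcnk1 1.91 at day 28 and Ccn4 2.35 at day 91, since it adds the probe sets with other differences. Genes called higher at day 28 numbered 2350 after quantile normalization, 2164 without a filter, 796 with the spike-in mean and 411 with the 3' minus 5' difference as a covariate, against 1403. Genes called lower at day 28 numbered 1390 and 616 with these covariates, against 2276. At day 91, 966 genes were higher without a filter, against 581, and 1221, 1076 and 1245 were lower after quantile normalization, centring and a stricter filter, against 2023. At day 7, 879 genes were lower after centring, and 351 were higher and 500 lower with the spike-in mean, against 709 and 1429. Without the arrays that stood apart, 325 genes were higher and 524 lower at day 7. Leaving out 1 array gave 378 (without day 91 control replicate 5) to 694 higher genes at day 91. The cause was not tested.

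Leaving out 1 phenobarbital array gave r of 0.43 to 0.73 for Nebl and Kcnk1, 0.44 to 0.64 for Nebl and Gm10419, 0.64 to 0.79 for Nebl and Ccn4, 0.56 to 0.73 for Kcnk1 and Gm10419, and 0.36 to 0.62 for Gm10419 and Ccn4. Kcnk1 and Gm10419 had 0.52 without the 2 farthest arrays. Days 28 and 91 alone gave 0.84 for Nebl and Kcnk1 (adjusted p = 0.0234) and 0.61 for Nebl and Ccn4, and centring gave Nebl and Kcnk1 0.64 (adjusted p = 0.048). Without the arrays that stood apart Nebl and Kcnk1 had 0.82 and Nebl and Ccn4 0.61, and days 1, 7 and 28 gave 0.63 for Nebl and Ccn4, 0.51 for Kcnk1 and Gm10419 and -0.24 for Kcnk1 and Ccn4. Control arrays gave -0.0375 for Nebl and Kcnk1, -0.13 for Nebl and Gm10419, -0.10 for Nebl and Ccn4, 0.24 for Kcnk1 and Gm10419, -0.11 for Kcnk1 and Ccn4 and -0.000372 for Gm10419 and Ccn4. Among pairs with like genes, which were added after seeing the data, control arrays gave Nebl -0.46 with Meg3, -0.29 with Rian, -0.12 with Cyp2d12, -0.0806 with Tmeff2 and -0.20 with Cyp2c65, Kcnk1 -0.23 with Tmeff2 and -0.47 with Cyp2d12, Gm10419 -0.25 with Cyp2d12 and Ccn4 -0.23 with 1700067K01Rik, where each had been above 0 with phenobarbital. Nebl and Gm10419 were dim on control arrays, so the control values of their pairs are a description. The covariation of Gm10419 with A2ml1 (r = -0.06) had rho = 0.10, 0.53 at days 28 and 91, 0.0179 after quantile normalization, 0.30 without the arrays that stood apart and -0.16 to 0.18 leaving out 1 array. At days 28 and 91 Ccn4 had -0.0486 with Nsl1 and -0.27 with Cyp2c37, and without the arrays that stood apart Cyp2c37 had -0.13. Leaving out 1 array gave -0.0587 to 0.24 and -0.0669 to 0.28.

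Of 112 calls of named genes at single days, 67 held in each setting tried, 9 were lost without the arrays that stood apart, and 26 were lost on leaving out at least 1 array. Those reversed were Ctnnb1 at days 1 and 28 with averaged probe sets (0.0200 and 0.13, against -0.14 each) and Fzd2 at day 7 with the spike-in mean (0.000349, against -0.35). Dim control signals of Nebl and Gm10419 limit how well their folds are known. No paired analysis was possible because the labels give no replicate numbers or pairing.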
